A study of Mus musculus with 31 samples.

Results

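The 42 genes described here act when a cell leaves G2 and goes through mitosis. They form a list of named genes with textbook roles in G2 and mitosis, matched by symbol and not by a threshold on measured values, out of 46072 genes in the files. All 42 were found, lie on 17 chromosomes with at most 7 on a single one (chromosome 2), and passed the filter on low values in both tumor models. The tumors were grown from RM-9, a prostate cancer line, or MC-38, a colon cancer line, both of the mouse. Cells were placed under the skin of the right hind leg of wild-type C57BL/6 mice (C57BL/6J males bought at 6 to 7 weeks of age, per the study's methods), and tumors were used once about 8 mm across. Tumors of the RT groups then received a single dose of 15 Gy and were taken 3 h, 12 h or 24 h later. Each group held 4 mice, apart from RM-9 RT 24 h with 3, which gave 31 libraries of messenger RNA, 1 per mouse. The control mice received no treatment and carry the 3 h label, so the 3 RT times of a model share the same 4 control mice, and a change at 12 h or 24 h cannot be told apart from a change with time alone. Each model is 1 cell line, and the tissue also holds host cells, so that fewer dividing cells and less RNA per cell cannot be told apart.

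A cell enters mitosis when cyclin B and the kinase Cdk1 are switched on together with Polo-like and Aurora kinases. Kinetochores then tie chromosomes to the spindle, the spindle checkpoint holds the anaphase-promoting complex in check until all are attached, and cyclin B is destroyed as the sister chromatids part and the cell divides. Most of these genes are transcribed in a wave that peaks in G2 and mitosis. Ionizing radiation breaks DNA, and dividing cells with broken DNA stop in G1, S or G2 through the ATM, ATR and p53 checkpoints.

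Levels are given as transcripts per 1000000 (TPM), which are scaled for gene length and for the sum of each library, and differences as log2 changes of TPM + 0.5 from limma, a linear model fitted across all genes tested (14013 in RM-9 and 15698 in MC-38). A gene is called higher or lower where its p, adjusted by Benjamini and Hochberg over all genes tested, is under 0.05, and each log2 change is followed by its standard error. Depth, worked out from the deposited coverage and FPKM, was 21.4 to 29.4 in units of 1000000 reads per library, and the members' coverage in single libraries, as mean reads per base, ran from 2.2 (Kif18a) to 226 (Ube2c), with a median of 37.0. Mitochondrial transcripts took 47.3% to 57.2% of TPM in RM-9 and 22.5% to 40.6% in MC-38 tumors. The median log2 change over all genes against control in RM-9 tumors was 0.06 (3 h), -0.19 (12 h) and -0.04 (24 h), and in MC-38 tumors 0.19, 0.33 and 0.22 in the same order. Counts of members called by limma are therefore also given after median-ratio scaling, which sets that median near 0. Counts with 1 mouse left out are given without the share of all genes. They show how far a count depends on single mice and are not a result about the members. A pair of MC-38 libraries stood apart. Control mouse 1 had a mitochondrial share of 40.6% and a summed TPM of 13853 over 10 skeletal muscle markers, against 22.5 to 2248 in the other control mice. RT 3 h mouse 4 differed from the other RT 3 h mice in the members themselves. MC-38 results are therefore also given without both libraries, a choice made after their values had been seen. Since RT 3 h mouse 4 was set apart by its member values, results that use the 3 h group without it are a description and not a test.

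The labels call both tumors adenocarcinoma. Over 10 epithelial markers, the summed TPM was 670 to 1526 in RM-9 tumors, with Krt7, Cdh1, Cldn4, Cldn7, Krt5 and Krt14 under 1 TPM in every library. In MC-38 tumors the sum was 0.861 to 2.13 TPM in all libraries but RT 12 h mouse 4, which had 25.1, and 8 of the 10 markers were under 1 TPM in every library, Epcam, Krt8, Krt18, Krt19 and Cdh1 among them.

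All members were expressed in untreated tumors, and 41 of 42 had a higher mean TPM in MC-38 than in RM-9 control mice, the exception being the kinetochore protein gene Cenpf. The median ratio of the control means, MC-38 over RM-9, was 2.12 and the range was 0.863 to 4.21. These levels were not tested against each other, since the share of mitochondrial transcripts differs between the models. The order of the members was alike, with Spearman's rho of 0.92 between the control means of the models across the 42 genes, which share their libraries. Over all libraries of a model, mean TPM was highest for Ube2c (140 in RM-9 and 290 in MC-38), the ubiquitin-conjugating enzyme that works with the anaphase-promoting complex. It was lowest for the kinesin gene Kif18a in RM-9 (4.08) and for Cenpf in MC-38 (6.43).

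A member score, the mean of log2(TPM + 0.5) over the 42 genes, describes each mouse and carries no test. RM-9 control mice scored 4.39 ± 0.16 (SD, n = 4), followed by 4.10 ± 0.24 (n = 4) at 3 h, 4.33 ± 0.18 (n = 4) at 12 h and 4.14 ± 0.20 (n = 3) at 24 h. MC-38 control mice scored 5.40 ± 0.32, and the 3 h, 12 h and 24 h groups 5.13 ± 0.44, 5.92 ± 0.14 and 5.96 ± 0.08 (SD, n = 4 each). After median-ratio scaling the spread shrank, and the MC-38 scores were 5.59 ± 0.04 in control, 5.11 ± 0.37 at 3 h, 5.77 ± 0.11 at 12 h and 5.89 ± 0.04 at 24 h. The RM-9 scores on that scale were 4.34 ± 0.12, 3.98 ± 0.16, 4.50 ± 0.07 and 4.14 ± 0.08. At 3 h the group means were below control in both models on both scales. At 24 h the mean lay above control in MC-38 and below it in RM-9 tumors.

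**Figure D1:**
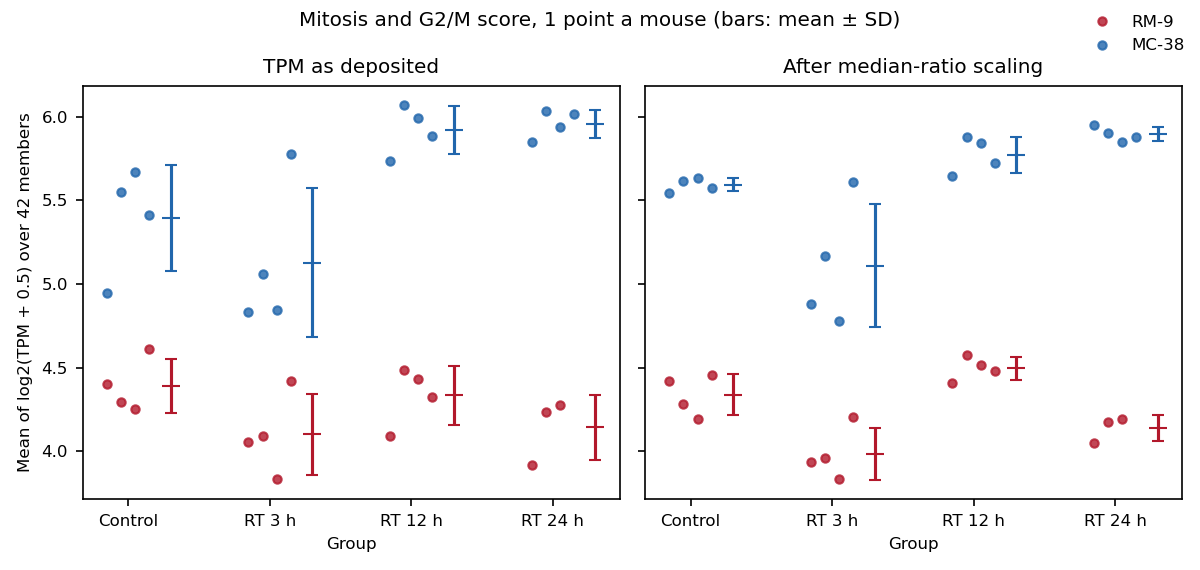
Member score (y axis, mean of log2(TPM + 0.5) over 42 genes) for each of 31 mice by group (x axis), RM-9 in red and MC-38 in blue, with TPM as deposited on the left and after median-ratio scaling on the right. Points are mice and bars are the group mean ± SD, and MC-38 RT 3 h mouse 4 lies at 5.78 (left) above the other 3 mice of its group at 4.83 to 5.06.

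At 3 h after RT in RM-9 tumors, the lowest values relative to control were those of genes for mitotic entry and exit, namely the Cdk-directed phosphatase gene Cdkn3, the anaphase activator gene Cdc20 and the Polo-like kinase gene Plk1. With TPM as deposited, 1 of 42 members was called lower (Cdkn3) and 0 higher, where 0.0285% of all genes were called lower, and 40 of 42 log2 changes were negative with a median of -0.27. After median-ratio scaling, 19 of 42 members (45.2%) were called lower and 0 higher, where 1.13% of all genes were called lower, with a median of -0.34. The 19 members were 6 of 8 mitotic entry genes, all 3 mitotic kinase genes, 2 of 3 anaphase genes, 2 of 5 kinetochore and centromere genes, 2 of 3 genes of the chromosomal passenger complex, 1 of 8 spindle genes and 3 of 6 cytokinesis genes. None of the 4 spindle checkpoint genes and neither Top2a nor Mki67 was among them. Leaving out 1 mouse of the control or 3 h group in turn gave 0 to 5 members called lower with TPM as deposited, the most without control mouse 3.

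Cdkn3 TPM in RM-9 tumors was 8.73, 8.87, 8.13 and 10.8 in the control mice and 3.66, 4.85, 4.46 and 6.28 at 3 h, before 8.01, 9.60, 10.5 and 8.80 at 12 h, then 6.18, 8.24 and 6.53 at 24 h. As deposited, every RT 3 h mouse was below every control mouse, and the 12 h mice overlapped with the controls. The log2 change at 3 h was -0.87 ± 0.15 (adjusted p = 0.031) as deposited. After scaling, every 12 h mouse was above every control (9.82 to 11.2 against 7.81 to 9.64). Cdc20 TPM was 47.7, 37.8, 32.7 and 54.4 in control, 23.4, 25.9, 22.8 and 30.9 at 3 h, 31.4, 33.8, 40.4 and 33.8 at 12 h, then 30.4, 38.9 and 41.0 at 24 h. The 3 h mice again lay below all controls, with a log2 change of -0.72 ± 0.15 (adjusted p = 0.072) as deposited and -0.78 ± 0.12 (adjusted p = 0.0086) after scaling. Plk1, whose kinase acts from mitotic entry to cytokinesis, was at 40.7, 33.5, 30.2 and 44.0 TPM in control, 21.3, 23.1, 19.5 and 29.2 at 3 h, 28.3, 35.8, 37.8 and 30.6 at 12 h, then 23.6, 34.0 and 32.8 at 24 h. Its 3 h group lay below control without overlap, and the change was -0.66 ± 0.16 (adjusted p = 0.088), or -0.73 ± 0.12 (adjusted p = 0.0093) after scaling.

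Aurka, the kinase of spindle poles, had TPM of 39.7, 36.3, 35.3 and 43.7 in RM-9 controls, 28.1, 29.6, 25.7 and 33.9 at 3 h, 36.0, 42.4, 44.0 and 38.8 at 12 h, then 30.4, 39.4 and 37.8 at 24 h. Ccnb1, which encodes cyclin B1, had TPM of 30.4, 29.9, 32.8 and 39.1 in control, 25.4, 24.6, 20.4 and 28.7 at 3 h, 26.1, 39.7, 34.9 and 35.8 at 12 h, then 19.8, 28.7 and 32.6 at 24 h. Both were lower in every 3 h mouse than in any control mouse, and both were called lower after scaling, with changes of -0.47 ± 0.07 (adjusted p = 0.0071) for Aurka and -0.48 ± 0.11 (adjusted p = 0.037) for Ccnb1. In all, 6 of 42 members lay below control without overlap (Aurka, Ccnb1, Ccnb2, Cdc20, Cdkn3 and Plk1), where 2.87% of all genes did, and 17 of 42 did so after scaling, where 7.08% of all genes did.

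Other members of the same machinery moved little at 3 h in RM-9 tumors. Cdk1, the kinase that binds cyclin B1, was at 77.6, 74.7, 64.8 and 86.1 TPM in control, 64.2, 104, 80.2 and 80.6 at 3 h, 52.1, 98.3, 102 and 84.8 at 12 h, then 87.5, 114 and 87.4 at 24 h. Its groups overlapped at 3 h, and the change was 0.10 ± 0.19 (adjusted p = 0.76). Aurkb, the kinase of the passenger complex, was at 24.0, 21.9, 21.8 and 28.9 TPM in control, 24.9, 24.0, 19.6 and 30.1 at 3 h, 18.4, 25.7, 23.8 and 21.6 at 12 h, then 18.5, 20.2 and 24.7 at 24 h. Bub1, a checkpoint kinase at kinetochores, was at 13.7, 13.4, 13.9 and 16.9 TPM in control, 13.6, 13.1, 11.2 and 17.0 at 3 h, 11.4, 16.2, 15.6 and 14.9 at 12 h, then 10.2, 12.6 and 15.0 at 24 h. For both the groups overlapped at each time, and the 3 h changes were 0.02 ± 0.14 for Aurkb and -0.08 ± 0.15 for Bub1.

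Ccna2, which encodes cyclin A2 of S and G2 phase, was at 38.8, 37.4, 33.4 and 45.8 TPM in RM-9 controls, 32.7, 29.9, 23.2 and 36.6 at 3 h, 30.6, 41.9, 39.5 and 34.8 at 12 h, then 26.2, 34.9 and 33.0 at 24 h. Its 3 h and control mice overlapped by a single pair of values as deposited, and it was called lower at 3 h after scaling (-0.42 as the log2 change). Kif11, the motor that pushes spindle poles apart, was at 11.9, 11.6, 12.6 and 15.8 TPM in control, 11.7, 11.2, 8.57 and 16.2 at 3 h, 10.2, 15.3, 12.6 and 12.6 at 12 h, then 9.40, 11.1 and 12.2 at 24 h. Cenpf was at 6.13, 4.78, 5.64 and 6.64 TPM in control, 4.56, 4.16, 3.73 and 6.45 at 3 h, 5.08, 7.11, 6.54 and 6.47 at 12 h, then 3.8, 5.03 and 4.82 at 24 h. Neither was called in any of the 3 comparisons with control on either scale.

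Top2a, which untangles DNA before chromosomes part, was at 54.2, 47.1, 47.2 and 58.1 TPM in RM-9 controls, 49.2, 49.0, 38.8 and 62.7 at 3 h, 38.6, 54.4, 50.9 and 48.4 at 12 h, then 38.0, 48.6 and 49.2 at 24 h. Mki67, the proliferation marker Ki-67 that coats mitotic chromosomes, was at 12.6, 10.2, 11.9 and 14.7 TPM in control, 10.6, 10.3, 8.02 and 16.1 at 3 h, 8.11, 10.4, 9.01 and 9.07 at 12 h, then 7.60, 10.1 and 10.5 at 24 h. The values of both overlapped with control at every time as deposited. After scaling, Mki67 lay below every control at 24 h. RM-9 RT 3 h mouse 4 had the highest 3 h value for each of the genes given so far but Cdk1, and the highest member score of its group at 4.42, against 3.84 to 4.09 in the others. Among marker lists at 3 h in RM-9 tumors, 0 of 10 macrophage and 0 of 6 tested T cell markers were called as deposited and 2 T cell markers were called lower after scaling. Muscle markers summed to 4.16 to 1064 TPM against 281 to 2709 in control, macrophage markers to 452 to 704 against 596 to 938, T cell markers to 4.12 to 10.6 against 10.2 to 20.3, and epithelial markers to 902 to 1241 against 1155 to 1396. Their part in the member levels was not tested.

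**Figure D2:**
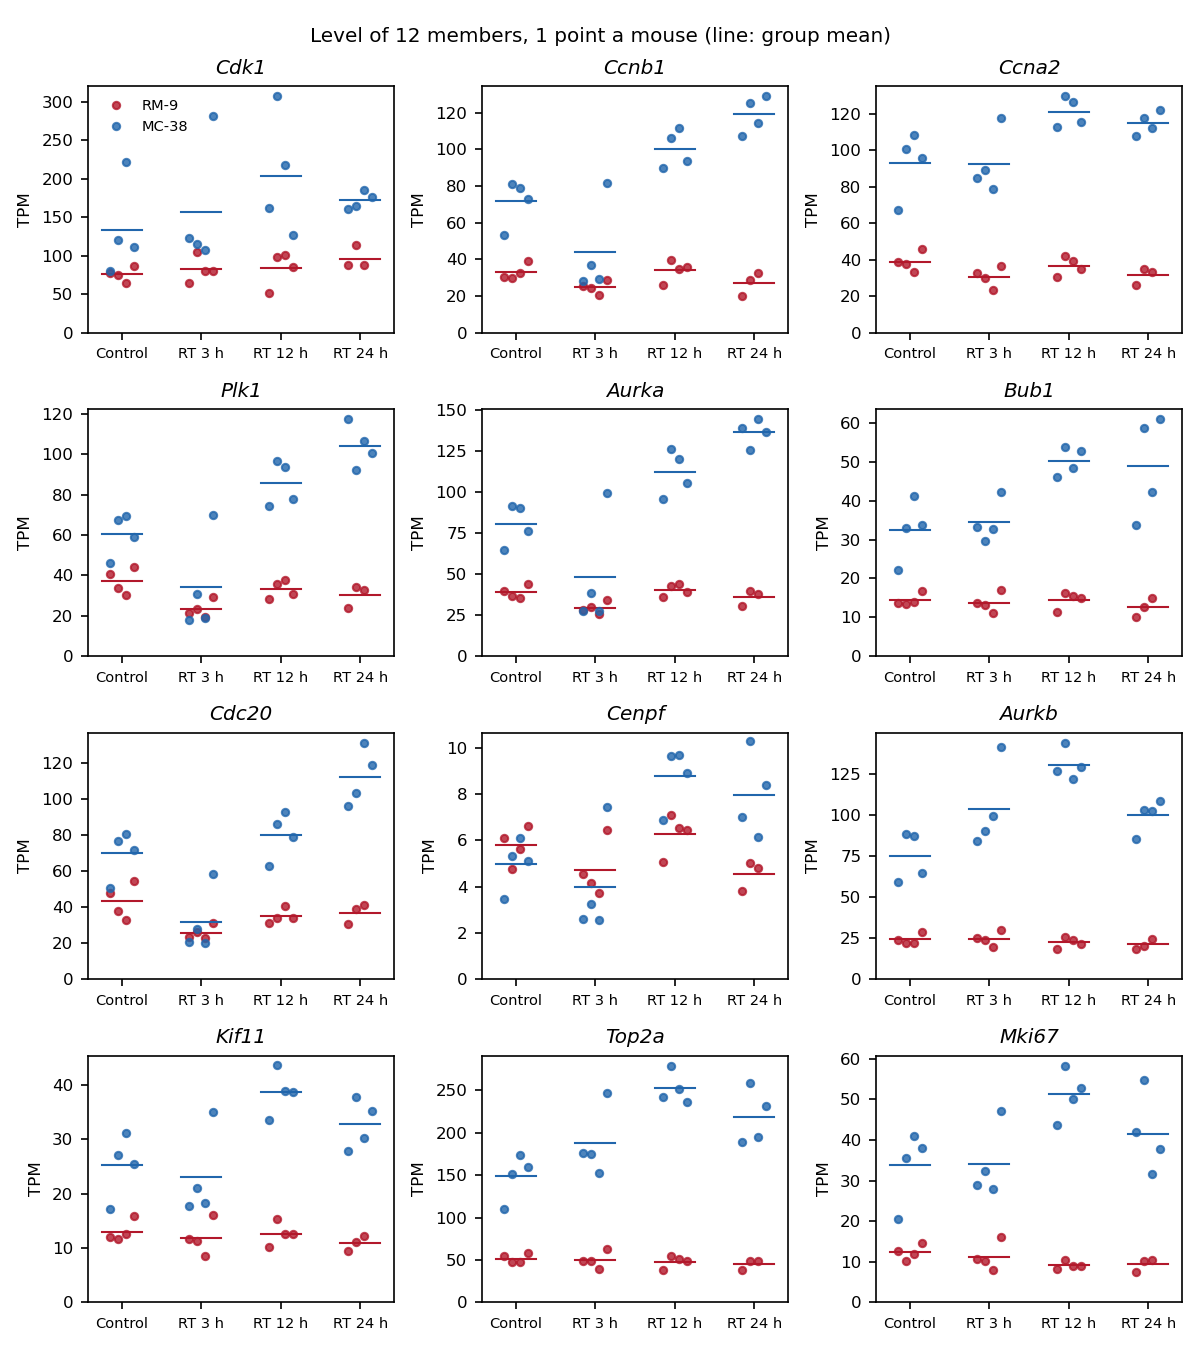
TPM (y axis, linear, from 0) of 12 members in every mouse by group (x axis), RM-9 in red and MC-38 in blue, with a line at each group mean. Cdc20, Plk1, Aurka and Ccnb1 drop at 3 h in all RM-9 mice and in MC-38 mice 1 to 3, while Aurkb and Top2a do not.

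From 3 h to 12 h some members rose in RM-9 tumors while the bulk of the transcriptome, as TPM, fell. No control mouse stands on either side of this comparison, but the controls share the fit that sets its variance, and the scaling. As deposited, 12 of 42 members (28.6%) were called higher at 12 h than at 3 h and 0 lower, where 0.335% of all genes were called higher and 28.7% lower. The 12 were Cdkn3, Cenpa, Aurka, Plk1, Hmmr, Nusap1, Ccnb2, Prc1, Ccnb1, Cdc20, Ube2c and Cdc25c. The smallest p-values were those of Cdkn3 (log2 change 0.89 ± 0.15, adjusted p = 0.017), the centromeric histone gene Cenpa (0.61 ± 0.12, adjusted p = 0.017) and Aurka (0.46 ± 0.11, adjusted p = 0.018). After scaling, 23 of 42 members were called higher, where 0.699% of all genes were, and the members' median change was 0.51. Leaving out RT 12 h mouse 1 ended all 12 calls made as deposited, and the other omissions from the 3 h and 12 h groups left up to 8.

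Against control, RM-9 members were near their starting level at 12 h as deposited TPM. As deposited 0 of 42 were called, with 2 at an unadjusted p under 0.05, where 8.3% of all genes were called lower and 0.0714% higher. Their median log2 change was -0.08 beside -0.19 for all genes, with 15 positive and 27 negative. The direction flipped after median-ratio scaling, to a median of 0.14 with 37 of 42 positive. The smallest p-values belonged to Mki67 (-0.40 ± 0.17), the spindle protein gene Hmmr (0.34 ± 0.14) and Racgap1 (-0.26 ± 0.13), which encodes a subunit of centralspindlin, and none passed (adjusted p = 0.13, 0.13 and 0.19). Hmmr TPM was 13.4, 13.3, 14.1 and 15.9 in control and 14.5, 21.0, 20.3 and 17.0 at 12 h, and Racgap1 TPM was 40.3, 34.3, 36.1 and 46.9 in control and 28.9, 36.3, 32.3 and 33.0 at 12 h. Both groups overlapped for both genes as deposited. After scaling, 9 of 42 members lay above every control at 12 h, Hmmr among them, where 499 of 14013 genes did. None of the members lay below every control, where 500 genes did. After scaling, 1 member was called higher at 12 h (Prc1, a microtubule bundler of the central spindle, 0.43 ± 0.07, adjusted p = 0.048), where 0.0928% of all genes were called higher. In the same RM-9 group 5 of 10 macrophage, 4 of 6 tested T cell and 1 of 5 tested epithelial markers (Krt18) were called lower as deposited, and 0 of each after scaling. Their summed TPM ran from 325 to 630 at 12 h against 596 to 938 in control for macrophages, from 3.66 to 9.71 against 10.2 to 20.3 for T cells and from 670 to 1138 against 1155 to 1396 for epithelial markers, and their part in the member levels was not tested.

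At 24 h in RM-9 tumors 0 of 42 members and 0% of all genes were called against control by limma, and 5 members had an unadjusted p under 0.05. After scaling 0 were called too, with 16 at an unadjusted p under 0.05. As deposited, 40 of 42 changes were negative, with a median of -0.25 beside -0.04 over all genes. The leading genes were Cdc25c, the phosphatase that activates Cdk1 (-0.46 ± 0.15), Cdca3 (-0.48 ± 0.16) and Racgap1 (-0.39 ± 0.14), with adjusted p of 0.95, 0.96 and 1.00. Cdc25c TPM was 5.29, 5.34, 4.67 and 6.01 in control and 3.31, 3.82 and 4.05 at 24 h, and Cdca3 TPM was 34.7, 35.2, 27.3 and 46.5 in control and 22.1, 27.6 and 26.0 at 24 h. Cdc25c lay below every control, and Cdca3 overlapped by a single pair of values. Racgap1 at 24 h was at 23.8, 33.8 and 32.5 TPM, below all 4 controls. Cdk1 went the other way, with all 3 RT 24 h mice above all controls and a change of 0.34 ± 0.21. In all, 3 members lay below control without overlap (Cdc25c, Kif4 and Racgap1) and 1 above, where 2.24% and 2.01% of all genes did. After scaling 7 lay below and 1 above, where 2.79% and 3.18% of all genes did. T cell markers summed to 8.05 to 9.39 TPM at 24 h, below the 10.2 to 20.3 of every control, and neutrophil markers to 28.3 to 56.9 against 27.6 to 40.1. On either scale 0 of 6 tested T cell, 0 of 10 macrophage and 0 of 9 neutrophil markers were called by limma, and their part in the member levels was not tested.

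Between 12 h and 24 h, the RM-9 members fell back in value but not past the threshold. As deposited, 39 of 42 changes were negative with a median of -0.17, 7 had an unadjusted p under 0.05, and 0 members and 0% of genes were called by limma. In 6 members every 24 h value lay below every 12 h value, where 0.535% of all genes did. After scaling 41 of 42 were negative, 32 had an unadjusted p under 0.05 (smallest adjusted p = 0.078), and 32 of 42 lay below 12 h without overlap, where 4.72% of all genes did. The smallest p-values as deposited were those of Nusap1 (-0.60 ± 0.17, adjusted p = 0.13), Ube2c (-0.39 ± 0.13, adjusted p = 0.16) and Prc1 (-0.38 ± 0.13, adjusted p = 0.17). From 3 h to 24 h, Cdkn3 (0.51 ± 0.16), Cdc20 (0.50 ± 0.17) and Cenpa (0.36 ± 0.13) led with adjusted p of 0.16, 0.17 and 0.18, and 0 of 42 members were called on either scale, with 6 at an unadjusted p under 0.05 as deposited and 12 after scaling.

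**Figure D3:**
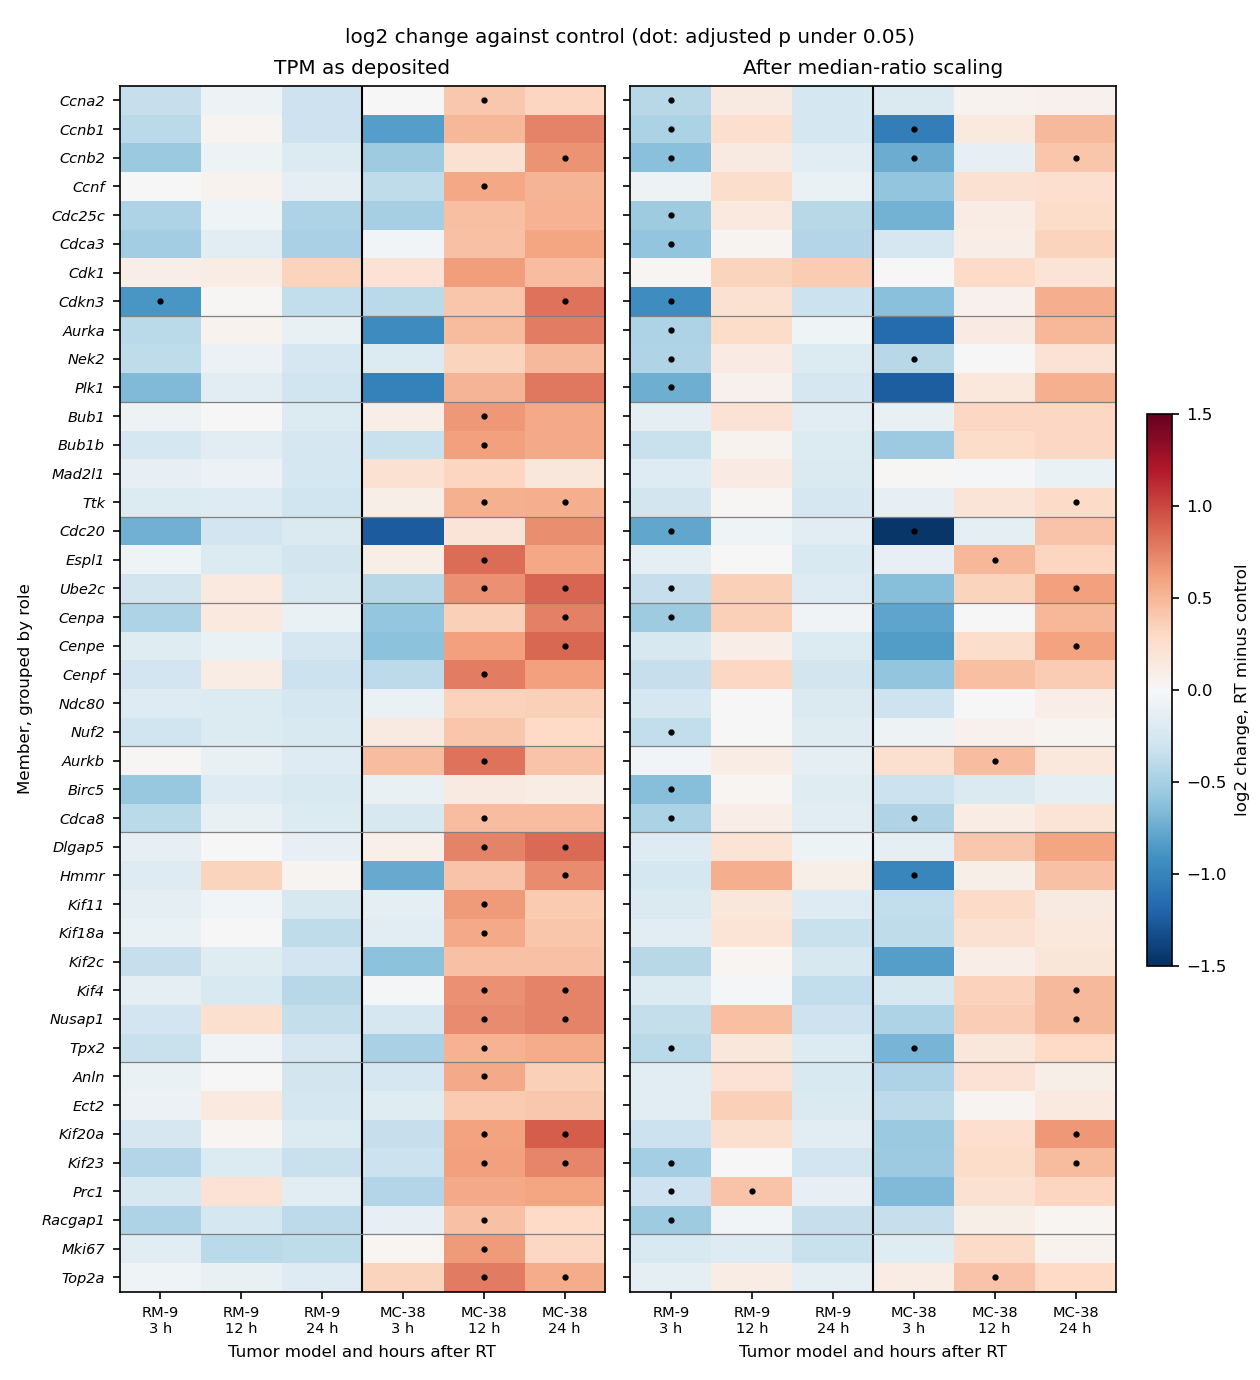
log2 change against control (colour, from -1.5 to 1.5) for the 42 members in rows, grouped by role, and the 6 comparisons in columns, with TPM as deposited on the left and after median-ratio scaling on the right. Dots mark adjusted p under 0.05, 1 and 19 of them in the RM-9 3 h columns and 22 and 3 in the MC-38 12 h columns.

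In MC-38 tumors at 3 h, mice 1 to 3 had low levels of Cdc20, Plk1, Aurka and Ccnb1. As deposited, but not after scaling, mouse 4 was at or above the lowest control for every member. With all mice, 0 of 42 members were called by limma as deposited, with 12 at an unadjusted p under 0.05, where 0.0127% of all genes were called lower and 0.051% higher. After scaling, 7 of 42 were called lower and 0 higher (Cdc20, Ccnb1, Hmmr, Ccnb2, Tpx2, Cdca8 and Nek2), where 0.357% of all genes were called lower. As a description without RT 3 h mouse 4 and control mouse 1, 17 of 42 members (40.5%) were called lower as deposited, where 0.236% of all genes were, and 25 of 42 (59.5%) after scaling, where 0.459% of all genes were. Without RT 3 h mouse 4 alone the count was 6 as deposited, with no share of all genes beside it. The median log2 change of the members was -0.25 with all mice and -0.55 without both.

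Cdc20 TPM in MC-38 tumors was 50.4, 76.9, 80.8 and 71.7 in control, 20.8, 27.6, 20.1 and 58.3 at 3 h, 62.6, 85.9, 92.5 and 78.6 at 12 h, then 95.9, 103, 131 and 119 at 24 h. As deposited, mouse 4 at 3 h lay within the range of the controls, and mice 1 to 3 lay far under it. After scaling, mouse 4 was at 51.8, below the 76.8 to 80.6 of the controls. The 3 h change was -1.25 ± 0.26 (adjusted p = 0.067) with all mice and -1.73 ± 0.16 without the pair of libraries. Plk1 TPM was 46.1, 67.2, 69.4 and 58.9 in control, 17.7, 30.8, 18.9 and 69.9 at 3 h, 74.3, 96.5, 93.7 and 77.9 at 12 h, then 117, 92.4, 107 and 100.4 at 24 h. The change at 3 h was -1.02 ± 0.30 (adjusted p = 0.14) with all mice and -1.56 ± 0.18 without both. Hmmr TPM was 19.8, 27.6, 32.7 and 28.0 in control, 13.3, 14.1, 11.7 and 26.1 at 3 h, 28.9, 38.2, 42.7 and 35.8 at 12 h, then 36.5, 52.7, 38.9 and 48.3 at 24 h. Its change was -0.76 ± 0.22 (adjusted p = 0.14) and, without both, -1.14 ± 0.16.

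Aurka had TPM of 64.5, 91.8, 90.3 and 76.3 in MC-38 controls, 27.6, 38.4, 27.6 and 99.3 at 3 h, 96.0, 126, 120.0 and 105 at 12 h, then 139, 126, 145 and 136 at 24 h. Ccnb1 had TPM of 53.3, 81.2, 79.1 and 73.0 in control, 28.1, 36.8, 29.2 and 81.8 at 3 h, 89.7, 106, 112 and 93.6 at 12 h, then 108, 126, 114 and 129 at 24 h. For both as deposited, mice 1 to 3 at 3 h were below every control, mouse 4 was above every control, and the 24 h mice were above every control. After scaling, mouse 4 was at 72.7 for Ccnb1, below the 77.0 to 85.1 of the controls. For Aurka it was then at 88.3, within the 85.5 to 98.3 of the controls. Without the pair of libraries the 3 h changes were -1.46 ± 0.13 for Aurka and -1.30 ± 0.11 for Ccnb1.

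Cdk1 TPM in MC-38 tumors was 79.6, 121, 221 and 112 in control, 123, 116, 107 and 281 at 3 h, 163, 308, 218 and 126 at 12 h, then 161, 165, 185 and 176 at 24 h. Cdk1 was spread from 79.6 to 221 TPM among control mice, its groups overlapped in all comparisons with control, and it was called in none of the 3. Aurkb TPM was 59.3, 88.4, 87.0 and 64.8 in control, 84.1, 89.96, 98.9 and 141 at 3 h, 126, 144, 122 and 129 at 12 h, then 85.1, 103, 103 and 108 at 24 h. Top2a TPM was 111, 151, 174 and 159 in control, 176, 175, 153 and 246 at 3 h, 242, 279, 252 and 237 at 12 h, then 189, 259, 195 and 231 at 24 h. Neither was lower at 3 h, with changes of 0.46 ± 0.16 for Aurkb and 0.33 ± 0.16 for Top2a (adjusted p = 0.17 and 0.25), and 0.19 ± 0.12 and 0.06 ± 0.12 without both libraries.

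Ccna2 was at 67.4, 101, 108 and 95.4 TPM in MC-38 controls, 84.5, 88.9, 78.9 and 117 at 3 h, 113, 129.8, 126 and 115 at 12 h, then 108, 117, 112 and 122 at 24 h. Bub1 was at 22.3, 33.1, 41.4 and 33.7 TPM in control, 33.3, 29.7, 32.8 and 42.3 at 3 h, 46.3, 54.0, 48.5 and 52.9 at 12 h, then 33.7, 58.9, 42.3 and 61.1 at 24 h. At 3 h both overlapped with control, and at 12 h every mouse was above every control for both as deposited. After scaling this held at 12 h for Bub1, while Ccna2 (103 to 114) overlapped with the controls (103 to 107). Cenpf was at 3.47, 5.31, 6.10 and 5.12 TPM in control, 2.61, 3.24, 2.57 and 7.47 at 3 h, 6.90, 9.68, 9.68 and 8.90 at 12 h, then 7.02, 10.3, 6.15 and 8.4 at 24 h. Kif11 was at 17.2, 27.1, 31.1 and 25.4 TPM in control, 17.8, 21.1, 18.3 and 35.0 at 3 h, 33.6, 43.6, 38.8 and 38.7 at 12 h, then 27.9, 37.8, 30.2 and 35.3 at 24 h. Mki67 was at 20.5, 35.6, 40.9 and 37.9 TPM in control, 28.9, 32.3, 28.0 and 47.1 at 3 h, 43.7, 58.2, 50.1 and 52.8 at 12 h, then 42.1, 54.7, 31.5 and 37.9 at 24 h. As deposited, these 3 genes were above all controls at 12 h and, apart from Cenpf, overlapped with control at 24 h. After scaling, Mki67 at 12 h and Cenpf at 24 h overlapped with control too. In all, 29 of 42 members lay above every control at 12 h as deposited, where 5420 of 15698 genes did. After scaling 16 lay above, where 2170 genes did, and 1 (Birc5) lay below, where 2213 genes did.

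As deposited, RT 3 h mouse 4 had the highest value of its group for 42 of 42 members. It was at or above the lowest control for 42 and above every control for 29. After scaling, every RT 3 h mouse, mouse 4 included, lay below every control for 12 of 42 members, where 767 of 15698 genes did. Cdc20, Ccnb1, Plk1, Hmmr and Tpx2 were among the 12. The deposited TPM of mouse 4 over the control mean had a median of 1.26 across the members, against 0.744 for the mean of mice 1 to 3. Of all genes tested, 58.0% were above every control in mouse 4, beside 23.4%, 19.1% and 40.9% in mice 1, 2 and 3. Of 20 p53 target genes, 13 were above every control in mouse 4, beside 11, 12 and 15 in the others in that order. Its muscle markers summed to 592 TPM, within the 96.9 to 3680 of the other RT 3 h mice, its macrophage markers to 799 (958 to 1362 in the others) and its mitochondrial share was 22.6% (25.5% to 31.4%). The part of these values in its member levels was not tested.

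**Figure D4:**
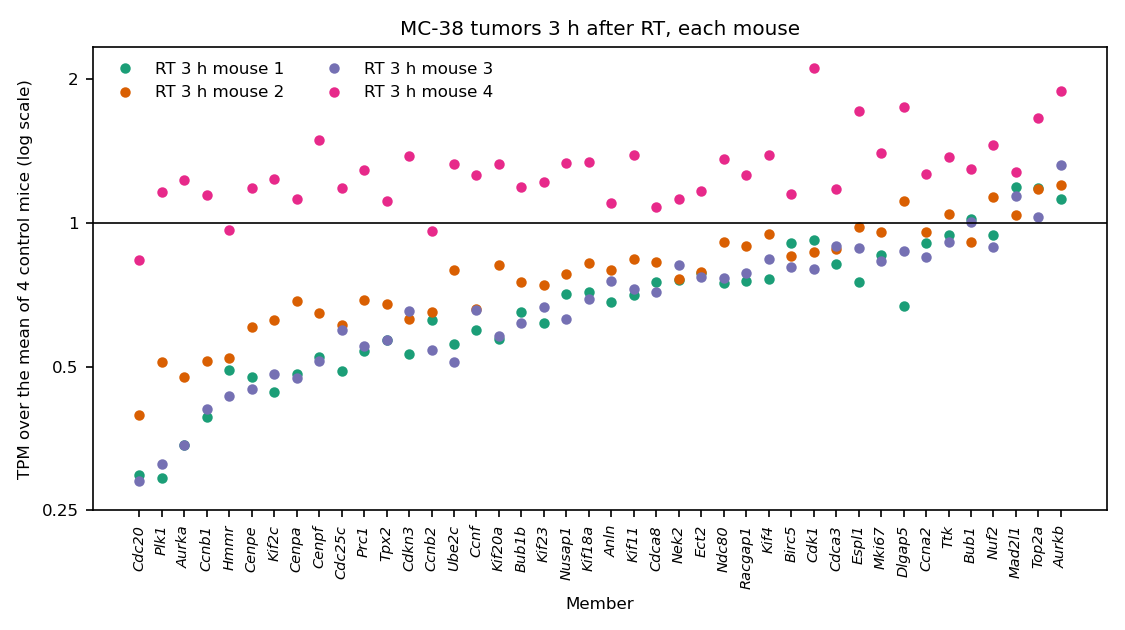
TPM of each member in each MC-38 RT 3 h mouse over the mean of the 4 control mice (y axis, log scale), with members on the x axis ordered by the mean of mice 1 to 3. Mouse 4 (pink) is the highest point for all 42 members, and the mean of mice 1 to 3 is lowest for Cdc20 and highest for Aurkb.

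The size of the 3 h change varied among members in both models in a partly shared order. Across the 42 genes, Spearman's rho between the RM-9 and MC-38 changes at 3 h was 0.56 with all mice and 0.49 without the pair of libraries, as a description over genes measured in the same libraries. The models share no mouse. Of the 10 members with the most negative change in each model (without both libraries in MC-38), 4 were shared, namely Cdc20, Cdc25c, Cenpa and Plk1. Of the 10 least lowered, 5 were shared, namely Aurkb, Bub1, Cdk1, Mad2l1 and Top2a. By role in MC-38 tumors without both libraries, the median change at 3 h was -1.46 for the mitotic kinases, -0.86 for kinetochore and centromere genes, -0.81 for anaphase genes and -0.76 for mitotic entry, and -0.17 for the spindle checkpoint and -0.15 for Top2a and Mki67.

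At 12 h in MC-38 tumors, the members rose together as TPM, but less so relative to the rest of the transcriptome. As deposited, 22 of 42 members (52.4%) were called higher than control and 0 lower, where 28.5% of all genes were called higher and 2.59% lower, and every member had a positive change with a median of 0.53 beside 0.33 for all genes. After scaling, 3 of 42 (7.14%) were called higher (Aurkb, Top2a and the separase gene Espl1), a share near the 6.34% of all genes, and 0 were called lower, where 9.84% of all genes were. Aurkb rose by 0.81 ± 0.16 (adjusted p = 0.0084) as deposited and by 0.47 ± 0.10 (adjusted p = 0.0091) after scaling. Top2a rose by 0.78 ± 0.16 (adjusted p = 0.0088) and 0.43 ± 0.10 (adjusted p = 0.015) in turn. Kif4, a chromokinesin, was at 9.31, 14.8, 16.8 and 14.5 TPM in control, 10.6, 13.1, 11.6 and 19.2 at 3 h, 19.6, 23.8, 22.5 and 22.8 at 12 h, then 24.0, 24.9, 21.7 and 21.7 at 24 h. All its 12 h and 24 h mice were above all controls, and it rose at 12 h by 0.69 ± 0.18 (adjusted p = 0.018) as deposited, while the value after scaling was 0.35 ± 0.12 (adjusted p = 0.067).

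The count at 12 h rested on single libraries. Leaving out RT 12 h mouse 2 gave 2 members called higher and leaving out control mouse 1 gave 3, while leaving out control mouse 3 gave 29. Without both libraries that stood apart it was 21 as deposited and 3 after scaling, where 14.6% and 1.99% of all genes were called higher. In the same group, 7 of 10 macrophage markers and 7 of 10 T cell markers were called lower as deposited, and 8 and 10 after scaling. Their summed TPM was 380 to 970 at 12 h against 1078 to 1827 in control for macrophages and 18.7 to 36.4 against 35.1 to 51.6 for T cells, and muscle markers summed to 10.0 to 565 against 22.5 to 13853. Neutrophil and fibroblast markers overlapped with control. The part of these cells in the rise of the members was not tested.

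At 24 h, MC-38 members were again above control, and the smallest p-values were those of Kif20a, Kif4 and Ube2c. As deposited 13 of 42 were called higher and 0 lower, where 13.2% of all genes were called higher. After scaling 8 of 42 (19.0%) were called higher (Kif20a, Ube2c, Cenpe, Kif4, Nusap1, Kif23, Ccnb2 and Ttk), where 7.85% of all genes were, and 0 were called lower, where 8.15% of all genes were. Kif20a, the kinesin that carries passenger proteins to the central spindle, was at 31.3, 46.0, 51.6 and 43.3 TPM in control, 24.5, 35.1, 24.97 and 57.0 at 3 h, 56.8, 71.8, 68.9 and 62.1 at 12 h, then 86.2, 76.8, 75.1 and 82.2 at 24 h. Ube2c was at 174, 236, 253 and 226 TPM in control, 124, 177, 114 and 295 at 3 h, 317, 386, 397 and 322 at 12 h, then 366, 397, 446 and 414 at 24 h. Both lay above every control mouse at 12 h and 24 h. Kif20a rose by 0.91 ± 0.21 at 24 h (adjusted p = 0.013), Ube2c by 0.88 ± 0.22 (adjusted p = 0.018) and Kif4 by 0.74 ± 0.18 (adjusted p = 0.015). In all 26 members were above control without overlap, as deposited and after scaling, where 14.8% and 8.4% of all genes were. Below every control lay 0 members as deposited, where 141 of 15698 genes did, and 1 (Mad2l1) after scaling, where 1334 did. Neutrophil markers summed to 49.8 to 157 TPM at 24 h against 30.2 to 43.5 in control, and 1 of 10 macrophage and 4 of 10 T cell markers were called lower as deposited and 4 and 7 after scaling, and their part was not tested. The count of calls was 2 without control mouse 1 and 22 without control mouse 3, and 20 as deposited and 13 after scaling without both libraries that stood apart, where 9.99% and 5.67% of all genes were called higher.

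Between RT times, MC-38 members rose from 3 h to 24 h. No control mouse stands on either side of these comparisons, but the controls share the fit that sets their variance, and the scaling. As deposited 22 of 42 (52.4%) were called higher at 24 h than at 3 h and 0 lower, where 1.98% of all genes were called higher, and after scaling 34 of 42 (81.0%), where 4.75% of all genes were. The count was 12 without RT 3 h mouse 2 and 31 without RT 3 h mouse 4. Without both libraries that stood apart it was 34 as deposited and 35 after scaling, where 5.82% and 3.94% of all genes were called higher. Cdc20 rose by 1.94 ± 0.26 (adjusted p = 0.0025), Ccnb2, which encodes cyclin B2, by 1.21 ± 0.17 (adjusted p = 0.0034) and Hmmr by 1.46 ± 0.22 (adjusted p = 0.0037). From 3 h to 12 h, 0 members and 0% of all genes were called by limma as deposited, though 38 members had an unadjusted p under 0.05. The leading members there were Cdc20 (1.45 ± 0.26), Hmmr (1.19 ± 0.22) and the spindle assembly factor gene Tpx2 (1.01 ± 0.19), each with adjusted p = 0.093. Without RT 3 h mouse 4 alone, 29 were called higher as deposited, with no share of all genes beside the count. After scaling with all mice 22 were, where 0.503% of all genes were, and without both libraries 38 as deposited and 31 after scaling, where 3.75% and 0.924% of all genes were. From 12 h to 24 h, 0 members were called by limma as deposited, with 2 at an unadjusted p under 0.05, where 1.39% of all genes were called higher and 0.293% lower, and Ccnb2 (0.45 ± 0.17), Aurkb (-0.39 ± 0.16) and Cdc20 (0.49 ± 0.26) led with adjusted p of 0.25, 0.29 and 0.41. Ccnb2 alone was called higher after scaling (0.54 as the log2 change), where 3.64% of all genes were. Every 24 h value was below every 12 h value for Aurkb and Mad2l1, where 9.85% of all genes were, and above for Ccnb2, Cdc20, Cenpa and Kif20a, where 4.95% of all genes were. After scaling this held below for Aurkb alone, where 6.61% of all genes were, and above for 11 members, where 7.77% of all genes were.

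The test of the difference between tumor models, MC-38 change minus RM-9 change in 1 fit of 31 libraries over 15358 genes, gave different answers by time. At 3 h, 0 of 42 members were called by limma as deposited, with 4 at an unadjusted p under 0.05, and 0 were called after scaling, where 0.026% of all genes were called lower. The leading members were Nuf2 (0.43 ± 0.19) and Mad2l1 (0.35 ± 0.16), of the kinetochore and the checkpoint, and Hmmr (-0.57 ± 0.27), with adjusted p of 0.48, 0.49 and 0.50. The members' median difference was 0.03 as deposited and -0.09 after scaling. Without the pair of MC-38 libraries, as a description, it was -0.36, and the fall of Aurka was larger in MC-38 by 1.06 on the log2 scale. At 12 h, 15 of 42 members (35.7%) were called with a greater change in MC-38, below the 44.9% of all genes, and 0 were called in either direction after scaling, where 1.53% of all genes were called higher and 1.31% lower. The count was 9 without control mouse 1 and 22 without control mouse 3 of MC-38. Aurkb (0.92 ± 0.22, adjusted p = 0.0038), Top2a (0.88 ± 0.22, adjusted p = 0.0046) and Espl1 (1.04 ± 0.29, adjusted p = 0.0077) led.

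At 24 h the members differed between models on both scales. As deposited 7 of 42 (16.7%) were called with a greater change in MC-38, where 1.81% of all genes were, and after scaling 7 of 42, where 1.43% of all genes were. The median difference was 0.80 beside 0.25 over all genes, and 0.55 beside 0.02 after scaling. Kif4 (1.16 ± 0.27, adjusted p = 0.029), Kif23, a subunit of centralspindlin (1.07 ± 0.26, adjusted p = 0.033), and the microtubule-binding Nusap1 (1.11 ± 0.27, adjusted p = 0.034) led. The other 4 called as deposited were Cdca3, Kif20a, Ube2c and Cdkn3. The 7 calls were lost without control mouse 1 of MC-38, control mouse 4 of RM-9 or RT 24 h mouse 1 of RM-9, and rose to 24 without control mouse 3 of MC-38. Without both MC-38 libraries that stood apart there were 11 calls as deposited and 12 after scaling, where 1.25% and 0.921% of all genes were called higher.

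Other genes of the cell cycle were taken from lists of textbook roles. Of 40 further kinetochore, spindle and cytokinesis genes, 0 were called at 3 h as deposited in either model and 4 in RM-9 and 1 in MC-38 were called lower after scaling. In MC-38 tumors 31 of the 40 were called higher at 12 h and 17 at 24 h as deposited, and 11 and 14 after scaling. All genes were called higher there at 28.5% and 13.2% as deposited and 6.34% and 7.85% after scaling, in the same order of times. Of 21 tested further regulators of mitotic entry, 0 were called in RM-9 against control as deposited, and 11 and 8 were called higher in MC-38 at 12 h and 24 h, or 5 and 7 after scaling, when 2 were also called lower at 3 h in each model. Of 8 condensin subunits, 7 were called higher in MC-38 at 12 h and 1 at 24 h, and after scaling 5 were at 12 h, with 2 higher and 1 lower at 24 h. Of 14 core subunits of the anaphase-promoting complex, 3 were called higher in MC-38 at 12 h as deposited and 2 lower in RM-9 at 12 h, and after scaling 3 were called lower in MC-38 at 12 h and at 24 h. The shares of all genes called lower were 8.3% in RM-9 at 12 h as deposited, and 9.84% and 8.15% in MC-38 at 12 h and 24 h after scaling.

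Of 24 S phase genes, which include the Mcm helicase genes, 0 were called against control at 3 h in either model as deposited, with a median change of -0.04 for RM-9 and of 0.39 for MC-38, beside -0.27 and -0.25 for the members. After scaling 0 were called in RM-9 and 1 was called higher in MC-38, and the difference between the lists was not tested. At 12 h in RM-9 tumors 12 of 24 S phase genes were called lower as deposited and 0 after scaling, while 0 members were called lower on either scale. Of all genes, 8.3% were called lower there as deposited and 0.0428% after scaling. Of the p53 targets, 7 of 20 were called higher at 3 h in RM-9 and 3 of 19 tested in MC-38 tumors as deposited, and 11 and 3 after scaling, and 0 were called lower in either. The shares of all genes called higher at 3 h in RM-9 were 0.2% as deposited and 1.61% after scaling. In MC-38 tumors they were 0.051% and 0.293% in the same order.

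**Figure D5:**
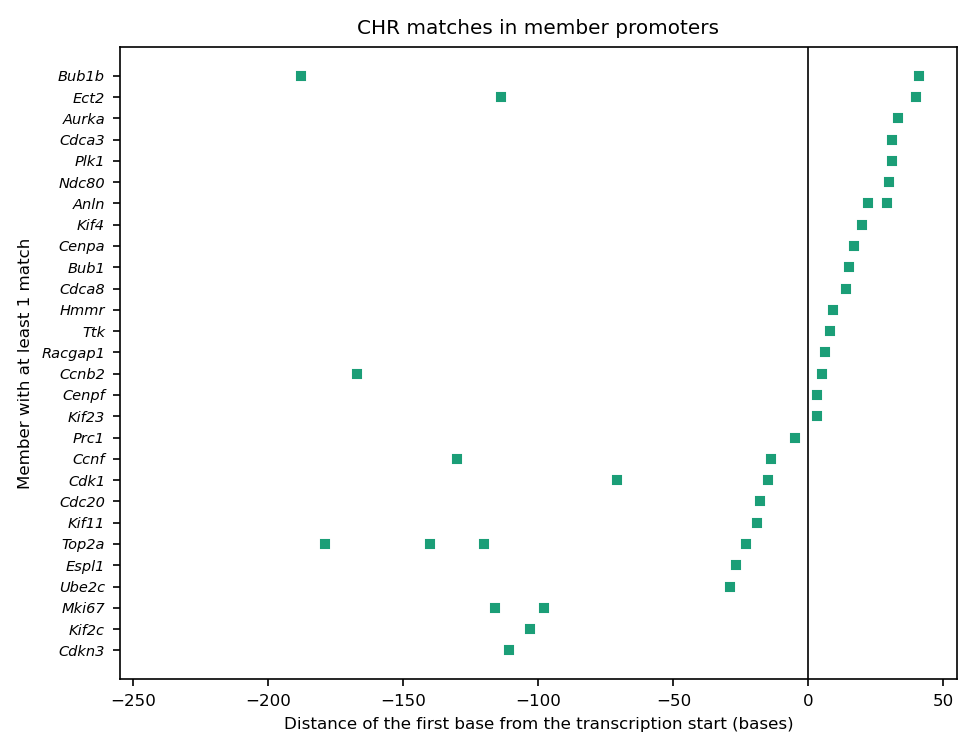
Distance of each CHR match from the transcription start (x axis, bases, negative before the start) for the 28 of 36 member promoters with at least 1 match (y axis). Matches cluster from -29 (Ube2c) to 41 (Bub1b), and others lie from -71 (Cdk1) to -188 (Bub1b).

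The members' promoters were read from RefSeq windows of 300 bases on GRCm38.p6, 250 before to 50 after the transcription start, which were at hand for 36 of 42 members. The start lay within 50 bases of the gene start in the files for 29 of the 36 and up to 3867 bases away in the others, so some windows may miss the start used in these tumors. The cell cycle genes homology region (CHR), bound by the DREAM and MuvB complexes, and the CCAAT box, bound by NF-Y, are elements known from promoters of G2 and mitosis genes. A CHR was searched as TTTGAA or TTCGAA on both strands, and the second form reads the same on both. It was found in 28 of 36 member promoters (77.8%), beside 18.0% of 18309 promoters in all and 13.5% of the 8921 whose genes were tested in both models. TTTGAA alone was found in 27 of 36 member promoters and 16.4% of all. CCAAT on either strand was found in 77.8% of member promoters and 38.2% of all, and at least 2 copies in 55.6% and 12.8%. Both elements were found in 69.4% of member promoters and 7.26% of all. The 8 members with no CHR match in the window were Birc5, Ccnb1, Cenpe, Kif18a, Mad2l1, Nek2, Nuf2 and Nusap1, of which Birc5, Ccnb1, Nek2 and Nuf2 were called lower at 3 h in at least 1 model after scaling. A match is a run of letters and was not tested as a bound site.

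The promoters of 10 members that the results turn on are shown from 130 bases before to 20 bases after the start, 5′ to 3′ on the strand of the gene, with matches to either element in capitals. The first 6 belong to genes that fell at 3 h in at least 1 model after scaling, and each holds CCAAT in the stretch shown. Ccnb1 holds no CHR match, and its start lay 84 bases from that in the files.
Cdc20, chr4:118437324-118437473, minus strand: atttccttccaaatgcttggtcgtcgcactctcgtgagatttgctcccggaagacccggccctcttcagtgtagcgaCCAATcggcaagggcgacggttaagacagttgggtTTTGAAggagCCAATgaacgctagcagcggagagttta
Plk1, chr7:122159305-122159454, plus strand: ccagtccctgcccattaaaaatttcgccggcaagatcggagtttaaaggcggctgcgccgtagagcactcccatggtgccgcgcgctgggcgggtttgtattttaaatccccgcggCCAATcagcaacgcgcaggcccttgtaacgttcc
Ccnb1, chr13:100786467-100786616, minus strand: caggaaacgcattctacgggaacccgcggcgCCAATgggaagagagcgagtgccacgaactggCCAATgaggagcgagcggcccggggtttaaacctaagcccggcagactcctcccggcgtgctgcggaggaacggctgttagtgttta
Ccnb2, chr9:70421535-70421684, minus strand: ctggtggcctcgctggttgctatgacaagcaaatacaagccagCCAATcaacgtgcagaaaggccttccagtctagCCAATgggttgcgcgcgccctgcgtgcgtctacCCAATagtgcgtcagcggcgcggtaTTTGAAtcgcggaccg
Cdkn3, chr14:46760411-46760560, plus strand: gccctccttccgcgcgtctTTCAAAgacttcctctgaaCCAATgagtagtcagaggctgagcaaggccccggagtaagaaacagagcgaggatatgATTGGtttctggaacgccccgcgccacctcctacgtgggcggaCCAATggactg
Ube2c, chr2:164769799-164769948, plus strand: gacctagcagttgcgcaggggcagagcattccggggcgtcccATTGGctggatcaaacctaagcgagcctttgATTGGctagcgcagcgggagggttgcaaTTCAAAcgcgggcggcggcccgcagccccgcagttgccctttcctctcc

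The CHR match of Plk1 starts 31 bases after the start, past the stretch shown. Birc5 fell at 3 h in RM-9 tumors after scaling and holds neither element in the stretch shown.
Birc5, chr11:117849107-117849256, plus strand: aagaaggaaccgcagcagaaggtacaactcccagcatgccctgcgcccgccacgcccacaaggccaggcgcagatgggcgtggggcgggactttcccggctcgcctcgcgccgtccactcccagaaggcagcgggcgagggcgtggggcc
The last 3 belong to genes that were called lower at 3 h in neither model, and Cdk1 and Top2a hold both elements, while Mad2l1, a checkpoint gene whose start lay 169 bases from that in the files, holds neither.
Cdk1, chr10:69352893-69353042, minus strand: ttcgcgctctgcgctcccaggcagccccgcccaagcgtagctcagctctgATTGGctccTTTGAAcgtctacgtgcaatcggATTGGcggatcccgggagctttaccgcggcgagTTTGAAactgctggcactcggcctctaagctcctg
Top2a, chr11:99024170-99024319, minus strand: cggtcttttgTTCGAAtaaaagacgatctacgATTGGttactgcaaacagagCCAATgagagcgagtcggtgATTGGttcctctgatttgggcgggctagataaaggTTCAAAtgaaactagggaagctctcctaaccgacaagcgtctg
Mad2l1, chr6:66535091-66535240, plus strand: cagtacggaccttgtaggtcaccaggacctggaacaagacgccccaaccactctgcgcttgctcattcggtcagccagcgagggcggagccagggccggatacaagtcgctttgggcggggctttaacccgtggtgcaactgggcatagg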

How the data were processed

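Poly(A) RNA of 31 tumors was sequenced by the authors, who converted reads with bcl2fastq (2.17 per the labels) and deposited a table of TPM, FPKM and coverage per gene for each library, quantified from aligned reads. The labels' processing notes name GRCm39, whereas the coordinates in the files matched a GRCm38 annotation (the same start or end for 91.1% of the 45223 shared IDs), so no file coordinates are given. Deposited TPM was used for levels and tests, and the deposited coverage and FPKM for depth. TPM keeps no counts, so no count model was used, and counting error could not be given. Mice are taken as replicates.

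A gene entered the fit of a model where its mean TPM was 0.5 or more, and the fit was made with limma 3.58.1 (R 4.3.3, lmFit and eBayes with a trend) on log2(TPM + 0.5), with the 4 groups of a model in 1 fit, which understates changes of low genes. Model differences came from 1 fit of 31 libraries. P-values were two-sided and Benjamini-Hochberg adjusted over all genes tested. Median-ratio scaling was recomputed from TPM. Summaries and plots were made with pandas 2.3.3, matplotlib 3.10.9, scipy 1.17.1 and numpy 2.4.6 under Python 3.11.15, and the fits were tested on simulated data. The members, roles, gene lists and tests were chosen with earlier results of these data known. Named by rule were 12 genes given in every mouse and, in each comparison, the 3 members with the smallest p. Genes named beyond these were chosen after their values were seen.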

Additional observations from a re-analysis of the deposited data

Results flagged for a closer look

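In 14 of 301 groups of 4 mice (4.65%), over the 42 members and their score, the highest or lowest mouse lay farther from the rest than a test for single outlying values allows, which chance gives in about 1 of 20 groups. In 9 of the 14 the outlying library was MC-38 RT 3 h mouse 4, at 99.3 TPM for Aurka, 81.8 for Ccnb1, 51.8 for Ccnf, 281 for Cdk1, 40.5 for Cdkn3, 7.47 for Cenpf, 33.7 for Ect2, 26.1 for Hmmr and 21.8 for Nek2. RM-9 control mouse 4 stood out for Bub1, at 16.9 TPM beside 13.4 to 13.9. MC-38 RT 12 h mouse 1 was low for Ccnf, at 54.99 TPM beside 62.6 to 63.8, and for Cenpe, at 28.5 beside 34.9 to 35.6. MC-38 RT 24 h mouse 1 was low for Mad2l1, at 108 TPM beside 127 to 131, and high for Dlgap5, at 88.3 beside 65.4 to 68.4.

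The change against control differed between the tumor models by the limma interaction at 12 h for 15 members, led by Aurkb (0.92), Top2a (0.88) and Espl1 (1.04), and at 24 h for 7 members, led by Kif4 (1.16), Kif23 (1.07) and Nusap1 (1.11), as log2 differences MC-38 minus RM-9. The shares were 35.7% of members beside 44.9% of all genes at 12 h, and 16.7% beside 1.81% at 24 h. After median-ratio scaling the number was 0 at 12 h and 7 at 24 h.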

How the results depend on the processing

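For the 3 members with the smallest p in each comparison, no change in that comparison changed sign under the alternatives run. This did not hold for every other change given. Aurkb at 3 h in RM-9 tumors had a small positive change as deposited and a negative one after median-ratio scaling. Its scaled values were 24.2, 21.8, 20.9 and 25.9 in control and 22.9, 21.8, 19.6 and 25.7 at 3 h. The sign also changed for 4 member medians, all of values under 0.1 in size. For RM-9 12 h against control the median of -0.08 became 0.06 without mitochondrial genes and 0.14 with median-ratio scaling. For the model difference at 3 h, 0.03 became -0.05 and -0.09 under the same settings, -0.20 to -0.03 with 4 of the single mice left out, and -0.36 without the pair of MC-38 libraries (-0.30 with scaling as well). For MC-38 24 h over 12 h, 0.01 became -0.04 to -0.01, and for RM-9 24 h over 3 h, 0.03 became -0.07 to -0.03, each with 3 of the single mice left out. Counts of members called that moved by over 1.5 times follow, and the cause was not tested. With median-ratio scaling, members higher were 22 for MC-38 12 h over 3 h, 3 for MC-38 12 h, 1 for MC-38 24 h over 12 h, 34 for 24 h over 3 h, 8 for MC-38 24 h, 23 for RM-9 12 h over 3 h, 1 for RM-9 12 h and 0 for the model difference at 12 h, and members lower at 3 h were 7 in MC-38 and 19 in RM-9. With mitochondrial genes left out of TPM, members higher were 15 for MC-38 12 h over 3 h, 13 for MC-38 12 h and 4 for the model difference at 12 h, and members lower at 3 h were 1 in MC-38 and 6 in RM-9. The shares of all genes called there were 0.362%, 19.6%, 13.1%, 0.147% and 0.215% in the same order. With no filter, the counts were 6 (MC-38 12 h), 7 (MC-38 24 h), 6 (RM-9 12 h over 3 h), 0 (RM-9 3 h) and 3 (model difference at 24 h), and a mean TPM of at least 5 gave 20 for MC-38 24 h. Fits of only the 2 groups gave 12 (MC-38 12 h), 13 (MC-38 24 h over 3 h), 8 (MC-38 24 h) and 0 (RM-9 3 h). An absolute log2 change of at least 1 left 0 for MC-38 12 h, MC-38 24 h, RM-9 12 h over 3 h and RM-9 3 h, and 2 for the model difference at 12 h. No share of all genes stands beside the counts with no filter, the higher filter, only 2 groups or this cut. Dunnett's comparisons on TPM gave 25 higher for MC-38 24 h, and lower 1 for MC-38 3 h, 2 for RM-9 24 h and 13 for RM-9 3 h. Dunnett p-values are adjusted over the 3 RT times of a gene and not over all genes. Their threshold is thus not that of the limma counts, and no share of all genes stands beside them.

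Chosen after seeing the data, leaving out MC-38 control mouse 1 and RT 3 h mouse 4 gave 38 higher for 12 h over 3 h, 1 for 24 h over 12 h, 34 for 24 h over 3 h, 20 for 24 h, 17 lower for 3 h, and for the model difference 11 higher at 24 h and 1 lower at 3 h. With scaling as well, these were 31, 2 higher and 1 lower, 35, 13 and 25, with 3 higher for 12 h, and for the model difference 0 at 12 h, 12 at 24 h and 3 lower at 3 h. For 24 h over 12 h, 2.45% of all genes were called higher, or 3.89% higher and 1.97% lower with scaling. For the model difference at 3 h, 0.0131% were called lower, or 0.0914% with scaling.

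Each mouse of the groups compared was left out in turn, and mice of the other groups in the fit were not. Members higher then ranged from 0 to 29 for MC-38 12 h over 3 h, 2 to 29 for MC-38 12 h, 12 to 31 for MC-38 24 h over 3 h, 2 to 22 for MC-38 24 h, 0 to 8 for RM-9 12 h over 3 h, 9 to 22 for the model difference at 12 h and 0 to 24 at 24 h. Members lower at 3 h ranged from 0 to 6 in MC-38 and 0 to 5 in RM-9. Replicate numbers were not taken to pair the mice. Of same-numbered mice, 7 of 24 MC-38 pairs (r from -0.48 to 0.55) and 5 of 21 RM-9 pairs (-0.39 to 0.32) correlated over 0.1. With so few mice in a group and no reference for these values, they cannot exclude a pairing. A fit with the replicate block called 21 members higher for MC-38 24 h. Depth limits the lowest members most, and TPM gives no counting error.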
